A study of Mus musculus with 23 samples.

Results

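The genes described are 39 genes of the tricarboxylic acid (TCA) cycle and of mitochondrial fatty acid oxidation, measured on 23 expression arrays of cells sorted from mouse mammary tumours. They were taken by symbol from a given list, each read from the brightest transcript cluster that names 1 gene. All 39 listed genes were measured, among 19938 genes in all. Of these, 19 act in pyruvate entry or the TCA cycle and 20 in fatty acid oxidation. The tumours grew from Py2T, an established murine breast cancer cell line, placed in the mammary fat pad of female FVB/N mice, whose age is not given in the sources used here. Tumour cells and endothelial cells were separated by fluorescence-activated sorting. The untreated groups had 3 tumour cell and 3 endothelial arrays. Nintedanib, an inhibitor of the VEGF, FGF and PDGF receptor kinases, was given at 50 mg per kg body weight. After 7 days of treatment there were 4 tumour cell and 3 endothelial arrays, and after 21 days 5 of each. Untreated tumours were collected at a size like that of the 21-day ones, so for the 7-day groups treatment and any difference in tumour size cannot be told apart. All tumours come from 1 cell line. By its title, the study asks how tumours escape drugs that block vessel growth, and what metabolic symbiosis has to do with it. The labels call the samples biological replicates but do not say how many mice gave each one, so p-values measure the spread between these samples.

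The pyruvate dehydrogenase complex turns pyruvate into acetyl-CoA, and the TCA cycle oxidises the acetyl group in the mitochondrial matrix while reducing NAD and FAD. Fatty acids are joined to CoA by acyl-CoA synthetases, cross the inner membrane through the carnitine shuttle and are shortened by repeated rounds of dehydrogenation, hydration, a second oxidation and thiolysis, each round yielding acetyl-CoA for the cycle. Endothelial cells are known for a strongly glycolytic metabolism, and fatty acid oxidation in them is known to support nucleotide synthesis and redox balance during vessel growth.

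The sorted populations differed in their markers. All 14 endothelial markers were called higher in endothelial arrays in each of the 3 treatment states, with median differences of 5.77, 6.01 and 5.85 log2 units in untreated, 7-day and 21-day cells. The keratins Krt8 and Krt18 were lower there, with differences of -2.45 ± 0.62 and -2.79 ± 0.61 (SE) in untreated cells. However, of the 10 tumour epithelial markers only 2, 3 and 3 were called lower in the 3 states. Of all genes 10.2%, 17.0% and 16.3% were called lower. The mean of 15 macrophage and monocyte markers spanned 5.48 to 7.56 on untreated endothelial arrays, 4.61 to 5.0 on 7-day arrays and 4.98 to 7.405 on 21-day arrays, against 4.27 to 5.10 on tumour cell arrays. The 3 endothelial arrays highest in these markers were untreated replicate 1 and 21-day replicates 3 and 4. On 21-day endothelial replicate 4 the mean of 10 tumour epithelial markers was 7.10, against 5.03 to 5.67 on the other 21-day endothelial arrays. It was 5.78 to 6.31 on tumour cell arrays. Across the 21-day endothelial arrays Krt8 spanned 7.32 to 11.02 and Krt18 6.47 to 10.12. On 21-day tumour cell arrays they spanned 11.31 to 11.65 and 10.37 to 10.75. Stress genes that cell isolation can induce had positive differences from untreated cells for 11 of 11 genes at 7 days. Of these, 3 were called in tumour cells and 0 in endothelial cells, against 0.507% and 0% of all genes. The mean of the stress genes ran from 9.04 to 9.48 on untreated tumour cell arrays, 9.93 to 10.29 at 7 days and 9.33 to 10.12 at 21 days. On endothelial arrays it ran from 8.25 to 8.68, 9.19 to 9.44 and 9.08 to 9.83. The mean of 11 adipocyte markers was higher on every endothelial array (4.53 to 4.88) than on every tumour cell array (3.85 to 4.01). Of the 11, 2, 6 and 4 were called higher in endothelial than in tumour cells in the 3 states, among them Fabp4 and Lipe. Of all genes 8.18%, 23% and 15.7% were called higher. Fabp4, a gene of endothelium as well as fat, weighs heavily in that mean. It read 9.20 to 10.71 on endothelial arrays and 3.81 to 4.61 on tumour cell arrays. The defining adipocyte gene Adipoq stayed between 3.26 and 4.03 on all arrays and Plin1 between 4.14 and 4.99. Between endothelial and tumour cells at 7 days Adipoq differed by 0.31 ± 0.10 (adjusted p = 0.0233). The mean of 10 pericyte and smooth muscle markers was 6.23 to 6.91 on endothelial arrays and 4.66 to 4.92 on tumour cell arrays. The part of any of these other cells in the differences between cell types was not tested. The median residual SD of a member was 0.18 log2 units between tumour cell arrays and 0.38 between endothelial arrays, against 0.16 and 0.26 over all genes.

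Endothelial cells had lower signal for a large part of these genes than tumour cells sorted from tumours in the same treatment state. In untreated tumours 12 of 39 genes were called lower at an adjusted p under 0.05 (limma) and 0 higher, when 10.2% of all genes were lower and 8.18% higher. After 7 days 18 were lower and 2 higher, against 17.0% and 23% of all genes. After 21 days 14 were lower and 0 higher, against 16.3% and 15.7%. The median difference of the 39 genes was -0.39, -0.55 and -0.35 log2 units in the 3 states, and that of all genes 0.03, 0.11 and 0.06. These are bright genes, 38 of them among the 9969 genes brightest by mean signal. These brighter genes had medians of -0.18, -0.27 and -0.19, and 20.3%, 31.3% and 29.9% of them were called lower. In bulk arrays, fewer cells of a type and less RNA per cell cannot be told apart, and the normalization makes every value relative to the other transcripts of its array.

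**Figure D1:**
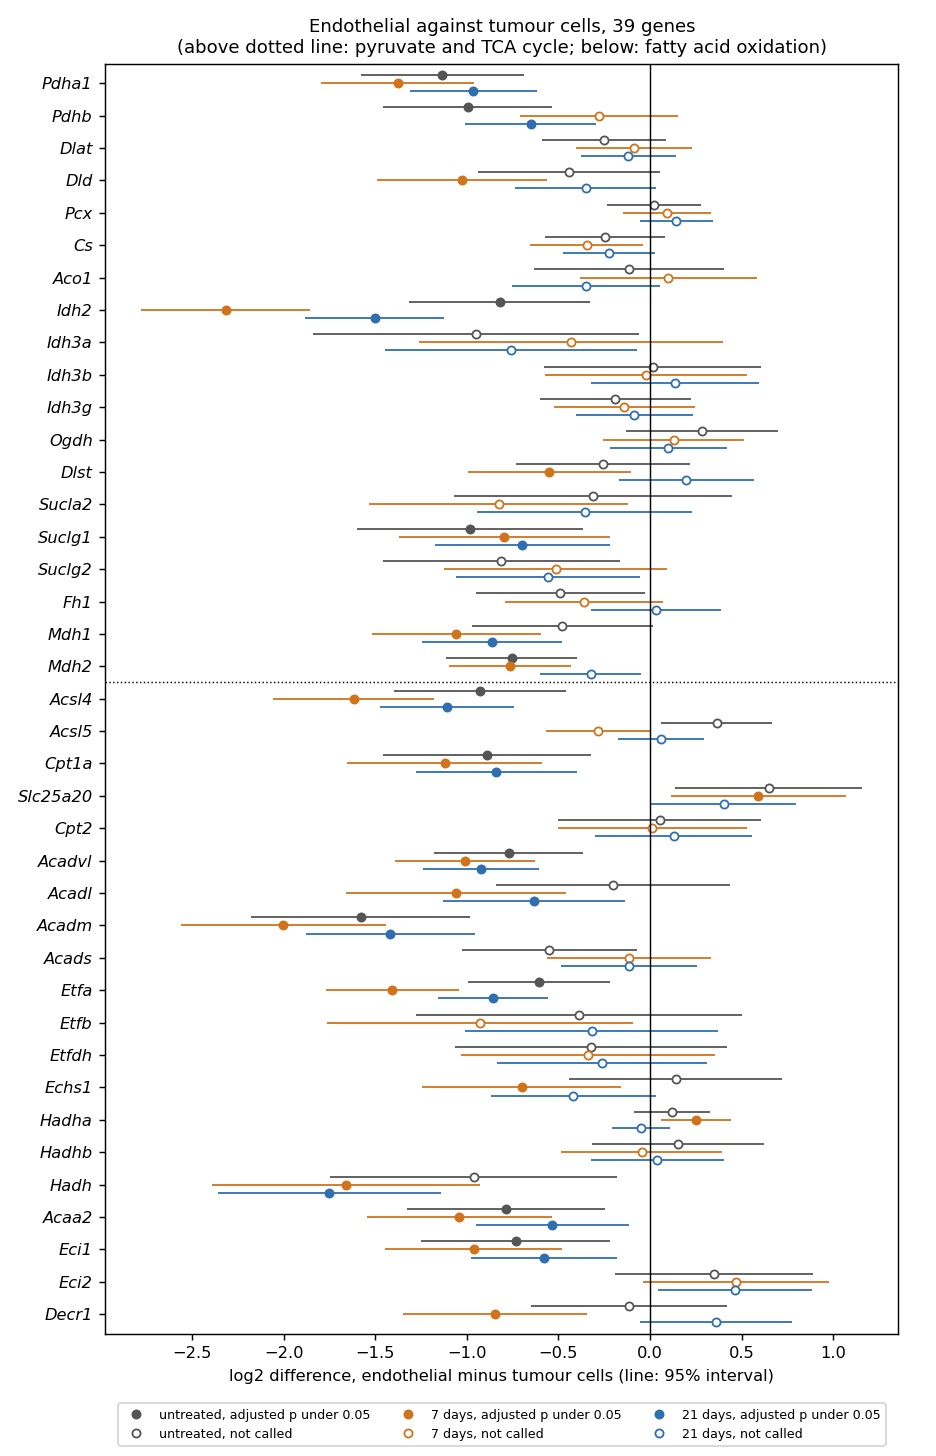
Log2 difference between endothelial and tumour cells for each of the 39 genes in untreated, 7-day and 21-day tumours (points, with 95% intervals as lines; filled points have an adjusted p under 0.05). Most points lie left of 0, with Idh2, Acadm, Acsl4 and Hadh farthest, while Slc25a20, Cpt2, Eci2, Ogdh and Pcx lie right of 0 in all 3 states. The Pcx signal lay near or below the array medians.

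The genes called lower in endothelial cells in all 3 states were 10: the pyruvate dehydrogenase subunit gene Pdha1, Idh2, Suclg1, Acsl4, Cpt1a, Acadvl, Acadm, Etfa, Acaa2 and Eci1. In 2 states the call was made for Pdhb, Mdh1, Mdh2, Acadl and Hadh, and in 1 state for Dld, Dlst, Echs1 and Decr1. For 18 genes no call was made in any state. How many of all genes, or of the brighter genes, were called lower or were negative in all 3 states was not counted. In the single states 20.3%, 31.3% and 29.9% of the brighter genes were called lower. The sign was negative in all 3 states for 25 genes and positive in all 3 for Pcx, Ogdh, Slc25a20, Cpt2 and Eci2, although Pcx at 7 days turned to -0.12 after renewed quantile normalization and to -0.02 after median centring. Cpt2 lay close to 0 at 7 days, with group means of 6.79 in endothelial and 6.78 in tumour cells. After median centring 3 genes in place of 5 were positive in all 3 states. Without untreated tumour cell replicate 1, 6 genes in place of 12 were called in untreated tumours, with Acaa2, Cpt1a, Eci1, Etfa, Idh2 and Suclg1 lost, and 4 in place of 10 in all 3 states. Leaving out untreated tumour cell replicate 2 or 3 left 8 calls in untreated tumours in each case. Acadm and Acsl4 were called lower in all 3 states under each of the 34 alternatives tried. Without the 3 endothelial arrays highest in macrophage markers, 11, 21 and 13 genes were called in the 3 states, in either direction, but they were partly other genes. In untreated tumours Acaa2, Cpt1a, Eci1 and Suclg1 were lost and 3 genes gained, the genes called lower in all 3 states were 6 in place of 10, and Acsl5, Eci2, Hadha and Slc25a20 were called higher in at least 1 state. When only the groups compared were fitted, 4 genes were called lower in all 3 states. The scaling moved the balance. After renewed quantile normalization the median of all genes at 7 days went from 0.11 to -0.0039 and that of the members from -0.55 to -0.35, with 14 members lower and 3 higher. After median centring 12, 21 and 15 members were lower in the 3 states and 0 higher, and of all calls 34.1%, 37.5% and 33.7% were higher in endothelial cells, against 44.6%, 57.6% and 49.0% as deposited.

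Of the 5 pyruvate entry genes 2 were called lower in endothelial cells in each state, Pdha1 every time. Of all genes 10.2%, 17.0% and 16.3% were called lower in the 3 states, and of the brighter genes 20.3%, 31.3% and 29.9%. Pdha1, the alpha subunit of the E1 enzyme, had log2 signals of 8.21, 8.11 and 8.50 in untreated tumour cells and 7.13, 6.55 and 7.74 in untreated endothelial cells. Every endothelial array lay below every tumour cell array, and the difference was -1.13 ± 0.21 (adjusted p = 0.000669), -1.38 ± 0.20 (3.02e-05) at 7 days and -0.96 ± 0.17 (0.000158) at 21 days. Its partner Pdhb, the E1 beta subunit, read 8.12, 7.64 and 7.75 in untreated tumour cells and 6.70, 6.53 and 7.28 in untreated endothelial cells. The ranges did not overlap there, and the difference of -1.0 ± 0.22 (adjusted p = 0.00266) was followed by -0.28 ± 0.21 (0.279) at 7 days and -0.65 ± 0.17 (0.00616) at 21 days. Dld, the shared E3 subunit of the 2-oxoacid dehydrogenases, was called lower at 7 days (-1.02 ± 0.22, adjusted p = 0.00147). Dlat, the E2 subunit, and Pcx, pyruvate carboxylase, which makes oxaloacetate, lay between -0.25 and 0.14 in all 3 states without a call.

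Among the TCA cycle genes the widest gap at 7 and 21 days was that of Idh2, the mitochondrial NADP-dependent isocitrate dehydrogenase. Untreated tumour cells read 9.53, 9.18 and 9.55 and untreated endothelial cells 8.98, 8.07 and 8.76. At 7 days the tumour cell arrays read 9.26, 9.40, 9.30 and 9.53 and the endothelial arrays 7.15, 7.31 and 6.71. At 21 days they read 9.45, 9.62, 9.72, 9.61 and 9.60, against 7.60, 7.72, 8.60, 8.39 and 8.18. No endothelial array reached the lowest tumour cell array in any state. The differences were -0.82 ± 0.24 (adjusted p = 0.0179), -2.32 ± 0.22 (1.35e-07) and -1.50 ± 0.18 (2.81e-06), and the 7-day value is a 4.98-fold lower signal. The NAD-dependent isocitrate dehydrogenase subunits Idh3b and Idh3g differed by -0.19 to 0.14 in the 3 states, and Idh3a, the catalytic subunit, by -0.95 ± 0.42 (adjusted p = 0.138), -0.43 ± 0.40 (0.390) and -0.76 ± 0.33 (0.0831), none called. Citrate synthase, Cs, differed by -0.24 ± 0.16, -0.35 ± 0.15 and -0.22 ± 0.12 without a call.

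Farther round the cycle, Suclg1, the shared alpha subunit of succinyl-CoA ligase, was lower, with differences of -0.98 ± 0.29, -0.80 ± 0.28 and -0.70 ± 0.23 (adjusted p = 0.0237, 0.0281 and 0.0248). Its beta partners Sucla2 and Suclg2 were negative in all 3 states, from -0.83 to -0.31, and not called. For Suclg2 this depended on the cluster. Its second cluster had group means of 7.96, 8.01 and 8.22 in tumour cells in the 3 states. In endothelial cells they were 7.15, 7.33 and 7.67. With the second clusters of Suclg2 and Hadhb in use, 11 genes in place of 10 were called lower in all 3 states. Mdh2, the mitochondrial malate dehydrogenase, read 11.13, 11.35 and 10.97 in untreated tumour cells and 10.69, 10.19 and 10.30 in untreated endothelial cells. These ranges did not overlap, with differences of -0.76 ± 0.17 (adjusted p = 0.00324), -0.77 ± 0.16 (0.00108) and -0.32 ± 0.13 (0.0670). The cytosolic malate dehydrogenase Mdh1 was called at 7 days (-1.06 ± 0.22) and 21 days (-0.87 ± 0.18). Ogdh, the E1 enzyme of the 2-oxoglutarate dehydrogenase complex, read 7.91, 7.87 and 8.16 in untreated tumour cells and 8.17, 8.31 and 8.31 in untreated endothelial cells. The endothelial arrays lay just above the tumour cell arrays, and no difference was called (0.28 ± 0.20, 0.13 ± 0.18 and 0.10 ± 0.15).

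**Figure D2:**
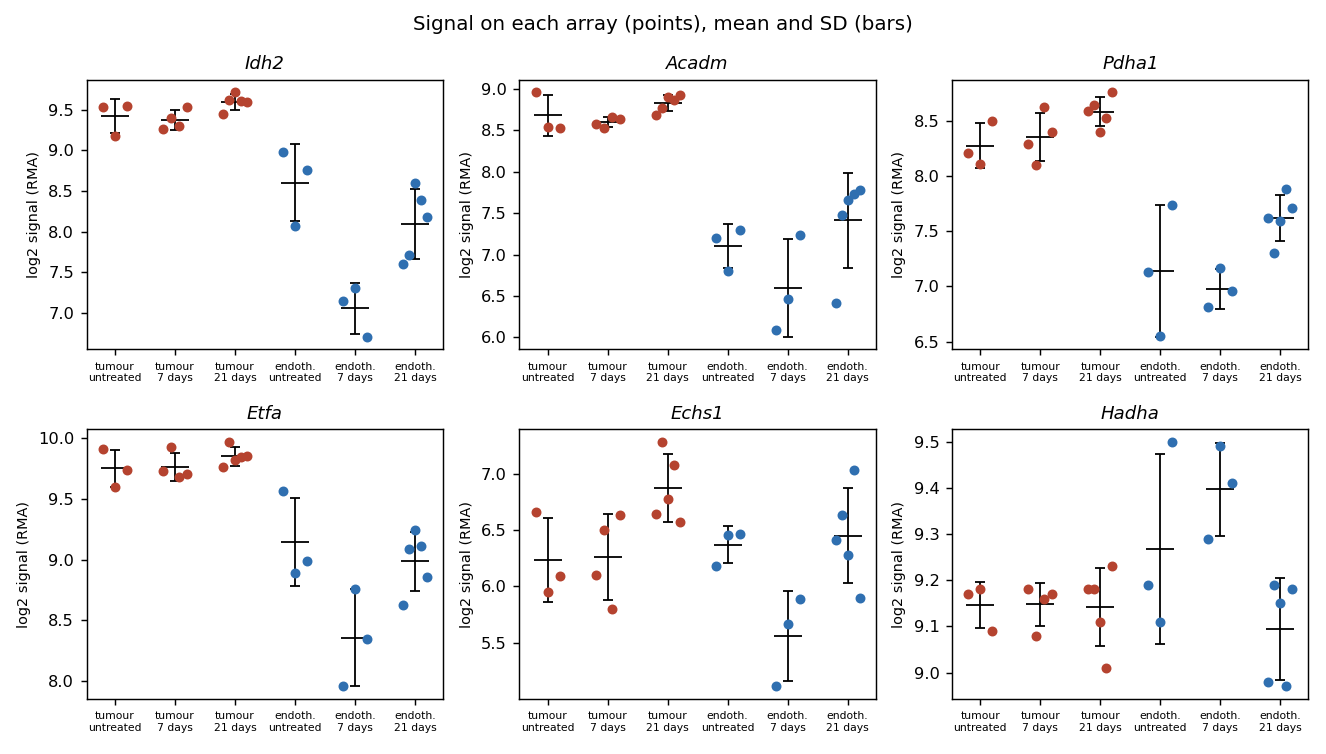
Log2 signal of 6 genes on each of the 23 arrays by group (points; horizontal bar and whiskers, group mean and SD). For Idh2, Acadm and Pdha1 every endothelial array lies below every tumour cell array, the 3 Idh2 values of 7-day endothelial cells (6.71 to 7.31) are the lowest of that gene, and Hadha stays within 8.97 to 9.50 in all groups.

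In fatty acid activation and transport the members differed in direction between endothelial and tumour cells. Acsl4, an acyl-CoA synthetase that prefers arachidonate, read 8.43, 8.68 and 8.60 in untreated tumour cells and 7.50, 7.65 and 7.78 in untreated endothelial cells. The groups did not overlap, and the difference was -0.93 ± 0.22 (adjusted p = 0.00565), -1.62 ± 0.21 (8.81e-06) and -1.11 ± 0.17 (6.21e-05) in the 3 states. Cpt1a, the carnitine palmitoyltransferase of the outer membrane and the regulated entry step of the pathway, was lower, with differences of -0.89 ± 0.27, -1.12 ± 0.25 and -0.84 ± 0.21 (adjusted p = 0.0257, 0.00206 and 0.00462). Slc25a20, the carnitine-acylcarnitine carrier, read 4.86, 4.30 and 4.64 in untreated tumour cells and 5.02, 5.30 and 5.42 in untreated endothelial cells, without overlap. Its difference was above 0 in all 3 states, at 0.65 ± 0.24 (adjusted p = 0.0731), 0.59 ± 0.23 (0.0458) and 0.40 ± 0.19 (0.109). Its 7-day call was lost after median centring (0.48, adjusted p = 0.117) and without endothelial 7-day replicate 1 (0.30, adjusted p = 0.311). The 5 genes with the smallest p on the positive side in untreated cells were Slc25a20, Acsl5 (0.36 ± 0.14, adjusted p = 0.0915), Ogdh, Eci2 (0.35 ± 0.26, adjusted p = 0.401) and Hadha (0.12 ± 0.10, adjusted p = 0.458), and none of them was called. Eci2, which shifts double bonds of unsaturated chains, read 6.98, 6.79 and 6.56 in untreated tumour cells and 6.36, 7.27 and 7.75 in untreated endothelial cells, where replicate 1 lay below all 3 tumour cell arrays.

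The acyl-CoA dehydrogenases and the electron transfer flavoprotein, which take the first pair of electrons, all had negative differences. The medians of these 7 genes were -0.55, -1.01 and -0.63 in the 3 states, beside -0.18, -0.27 and -0.19 over the brighter genes. Of the 7, 3, 4 and 4 were called lower, when 20.3%, 31.3% and 29.9% of the brighter genes were. Acadm, the medium-chain dehydrogenase, read 8.96, 8.54 and 8.53 in untreated tumour cells against 7.2, 6.80 and 7.30 in untreated endothelial cells. At 7 days it read 8.57, 8.53, 8.66 and 8.63 against 6.09, 6.46 and 7.24, and at 21 days 8.68, 8.77, 8.90, 8.86 and 8.92 against 6.41, 7.48, 7.66, 7.73 and 7.78. The tumour cell arrays were tightly grouped and the endothelial arrays spread, with no overlap in any state. Its differences were -1.58 ± 0.29 (adjusted p = 0.000465), -2.0 ± 0.27 (1.24e-05) and -1.42 ± 0.22 (5.86e-05). The very-long-chain enzyme Acadvl was lower, with differences of -0.77 ± 0.19, -1.01 ± 0.18 and -0.92 ± 0.15 (adjusted p = 0.00762, 0.000298 and 9.71e-05). Etfa, the alpha subunit of the flavoprotein, was lower, with differences of -0.61 ± 0.19, -1.41 ± 0.17 and -0.86 ± 0.14 (adjusted p = 0.0272, 5.11e-06 and 0.000129). Its beta partner Etfb differed by -0.39 ± 0.43, -0.93 ± 0.40 and -0.32 ± 0.33, and Etfdh, which passes the electrons on to ubiquinone, by -0.32 ± 0.35, -0.34 ± 0.33 and -0.26 ± 0.27, without a call. The long-chain enzyme Acadl was called at 7 days (-1.06 ± 0.29, adjusted p = 0.00713) and 21 days (-0.63 ± 0.24, 0.0470). The short-chain enzyme Acads differed by -0.55 ± 0.23 (adjusted p = 0.107) in untreated cells and by -0.12 at both later times.

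The later steps divided. Hadh, the short-chain 3-hydroxyacyl-CoA dehydrogenase, read 8.77, 8.78 and 8.92 in untreated tumour cells and 7.70, 7.41 and 8.47 in untreated endothelial cells. It differed by -0.96 ± 0.37 (adjusted p = 0.0836), -1.66 ± 0.35 (0.00118) and -1.75 ± 0.29 (0.000111). The thiolase Acaa2 was lower, with differences of -0.79 ± 0.26, -1.04 ± 0.24 and -0.53 ± 0.20 (adjusted p = 0.0383, 0.00245 and 0.0477), and the enoyl-CoA isomerase Eci1 by -0.73 ± 0.25, -0.96 ± 0.23 and -0.58 ± 0.19 (0.0435, 0.00315 and 0.0261). The trifunctional protein, which carries out the last 3 steps for long chains, did not follow them. Its alpha subunit gene Hadha read 9.17, 9.18 and 9.09 in untreated tumour cells and 9.19, 9.11 and 9.50 in untreated endothelial cells, overlapping ranges. At 7 days the endothelial arrays, at 9.29, 9.49 and 9.41, lay above the tumour cell arrays at 9.18, 9.08, 9.16 and 9.17 (0.25 ± 0.09, adjusted p = 0.0364), and after median centring that difference was 0.14 (adjusted p = 0.292). At 21 days it was -0.05 ± 0.08. The beta subunit gene Hadhb differed by 0.15 ± 0.22, -0.05 ± 0.21 and 0.04 ± 0.17, and its second cluster gave group means of 7.53 and 7.61 in untreated tumour and endothelial cells. The 95% intervals of the untreated difference ran from -0.09 to 0.32 for Hadha and from -0.31 to 0.62 for Hadhb. The 7-day call of Hadha was kept under 21 of 34 alternatives and that of Slc25a20 under 19.

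Hadha and Hadhb lie head to head on mouse chromosome 5, and their start sites in RefSeq (GRCm38.p6), at 30154980 and 30155253, are 272 bases apart, so 1 stretch serves as promoter of both. It is shown with the promoters of 3 genes on which the results turn: Acadm and Idh2, lower in endothelial cells, and Acsl5, which rose in 7-day tumour cells. Each is the 250 bases before the start site on the gene's strand. Capitals mark AGGTCA, the core motif of nuclear receptors such as PPAR and ERR, or CCAAT, the core bound by NF-Y, on either strand. The first is at chr5:30154981-30155230 (minus strand), the second at chr3:153944644-153944893 (minus), the third at chr7:80115351-80115600 (minus) and the fourth at chr19:55253119-55253368 (plus).
Hadha: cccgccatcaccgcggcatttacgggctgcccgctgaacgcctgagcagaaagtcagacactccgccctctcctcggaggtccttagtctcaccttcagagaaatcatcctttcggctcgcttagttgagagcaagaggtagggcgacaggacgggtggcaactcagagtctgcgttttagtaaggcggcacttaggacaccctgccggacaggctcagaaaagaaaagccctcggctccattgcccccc
Acadm: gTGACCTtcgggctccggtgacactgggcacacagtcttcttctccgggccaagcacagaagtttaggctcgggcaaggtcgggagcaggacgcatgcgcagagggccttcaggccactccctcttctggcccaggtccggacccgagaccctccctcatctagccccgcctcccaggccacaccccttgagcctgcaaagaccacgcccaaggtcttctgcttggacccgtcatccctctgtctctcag
Idh2: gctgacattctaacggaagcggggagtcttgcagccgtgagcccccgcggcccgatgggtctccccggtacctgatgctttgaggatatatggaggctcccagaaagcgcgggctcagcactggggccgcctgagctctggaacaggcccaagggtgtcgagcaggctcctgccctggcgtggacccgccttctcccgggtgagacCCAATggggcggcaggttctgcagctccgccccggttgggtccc
Acsl5: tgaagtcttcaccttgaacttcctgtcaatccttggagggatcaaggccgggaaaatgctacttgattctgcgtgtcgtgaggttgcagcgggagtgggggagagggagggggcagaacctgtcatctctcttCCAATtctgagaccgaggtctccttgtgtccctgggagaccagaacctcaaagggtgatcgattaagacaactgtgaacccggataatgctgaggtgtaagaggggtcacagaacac
In the shared stretch of Hadha and Hadhb neither motif occurred. The Acadm promoter held 1 AGGTCA, on the reverse strand at its far end, and those of Idh2 and Acsl5 held 1 CCAAT each.

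Across the genes, 36 of 39 matched an entry of the RefSeq promoter table, which spans 250 bases before to 50 after each start site, and Idh3a, Acaa2 and Decr1 did not. Both strands were searched, and a gene counted where any of its windows held the motif. AGGTCA occurred in 9 of 36 members (25%) and in 18.1% of 27025 genes. CCAAT occurred in 17 (47.2%) and in 41.1% of genes. The hypoxia response core ACGTG occurred in 6 (16.7%) and in 21.8%. The NRF1 consensus, the motif of nuclear respiratory factor 1, occurred in 4 (11.1%) and in 5.19%. TNAAGGTCA, the extended site of estrogen-related receptors, which contains AGGTCA, occurred in 0 of 36 and in 1.43%. These matches are a description of the letters.

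In tumour cells 1 of the 39 genes was called between 7-day treated and untreated tumours. Acsl5, a mitochondrial and endoplasmic reticulum acyl-CoA synthetase, rose at 7 days, in a comparison where 0.507% of all genes were called and 0.396% called higher. Its signal was 7.93, 7.76 and 7.73 in untreated cells, 8.34, 8.37, 8.19 and 8.32 at 7 days and 8.13, 8.35, 8.17, 8.19 and 8.28 at 21 days. All 9 treated arrays lay above the 3 untreated ones. The rise was 0.50 ± 0.08 at 7 days (1.41-fold, adjusted p = 0.0249), and the 21-day difference was 0.42 ± 0.08 (adjusted p = 0.0745). The isolation stress mean did not overlap between these groups either, at 9.93 to 10.29 and 9.04 to 9.48. The call was kept under 14 of 24 alternatives. It was lost with 1 fit over all 23 arrays (adjusted p = 0.237), with a trend in the prior variance (0.0622), and without any 1 of untreated replicates 2 and 3 and 7-day replicates 1, 2 and 4 (0.0632 to 0.0852). With the isolation stress mean as a covariate the difference was 0.54 ± 0.14 (adjusted p = 0.675), and with the macrophage mean 0.50 ± 0.09 (0.0602).

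**Figure D3:**
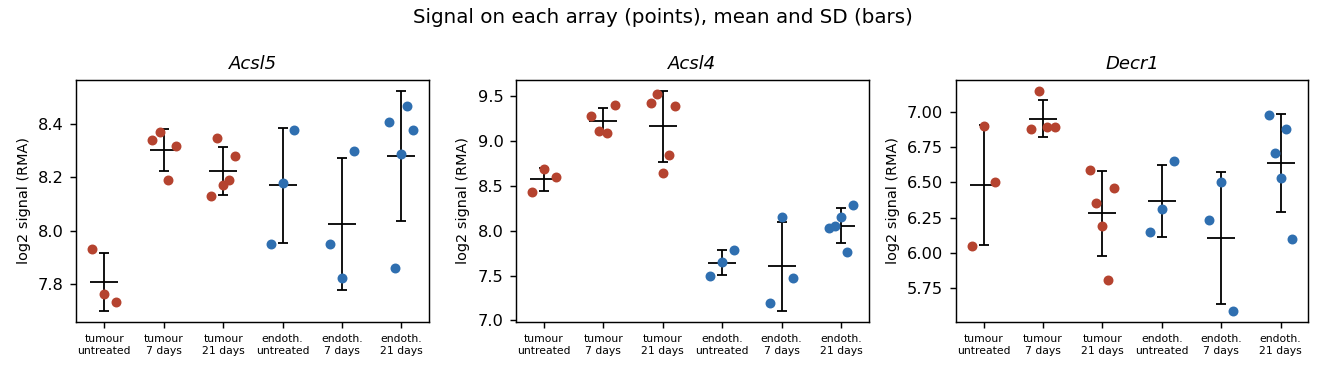
Log2 signal of Acsl5, Acsl4 and Decr1 on each of the 23 arrays by group (points; horizontal bar and whiskers, group mean and SD). The 9 treated tumour cell arrays of Acsl5 lie between 8.13 and 8.37, above the untreated ones at 7.73 to 7.93, and Decr1 is higher at 7 days (6.88 to 7.15) than at 21 days (5.81 to 6.59).

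The other genes with the smallest p in 7-day tumour cells were Acsl4 and Slc25a20. Acsl4 read 8.43, 8.68 and 8.60 untreated, 9.27, 9.11, 9.09 and 9.40 at 7 days and 9.42, 9.52, 8.64, 8.84 and 9.39 at 21 days. The 7-day arrays lay above the untreated ones while the 21-day arrays overlapped them, and the differences were 0.65 ± 0.19 (adjusted p = 0.194) and 0.59 ± 0.19 (0.311). Slc25a20 read 5.14, 4.89, 5.11 and 5.38 at 7 days, all above the untreated arrays, and differed by 0.53 ± 0.17 (adjusted p = 0.216). On the negative side were Fh1, fumarase (-0.35 ± 0.12, adjusted p = 0.253), Pdhb (-0.22 ± 0.11, 0.491) and Hadh (-0.27 ± 0.14, 0.541). Fh1 read 8.38, 8.21 and 7.93 untreated and 7.84, 7.77, 7.74 and 7.94 at 7 days, which overlapped by 1 array. Pdhb at 7 days read 7.58, 7.54, 7.66 and 7.66 and Hadh 8.42, 8.45, 8.54 and 8.81, each with 1 or more arrays inside or next to the untreated range. None of these 5 was called. At an unadjusted p under 0.05, 8 of 39 genes were higher and 1 lower, against 6.19% and 4.83% of all genes. The median of the 39 differences was 0.09, that of all genes -0.01 and that of the 9969 genes brightest on tumour cell arrays 0.02. After renewed quantile normalization the median of the 39 was 0.05.

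At 21 days in tumour cells limma called 0 of 39 genes (0.0903% of all genes), as did limma with a trend in the prior variance. At an unadjusted p under 0.05, 12 genes were higher and 1 lower, against 5.97% and 4.16% of all genes. The member median was 0.15, that of all genes -0.01 and that of the 9969 genes brightest on tumour cell arrays 0.05. After renewed quantile normalization the member median was 0.07. Beside Acsl5 and Acsl4, the smallest p on the positive side was that of Eci2, an enoyl-CoA isomerase (0.46 ± 0.15, adjusted p = 0.331), which read 6.89, 7.31, 7.29, 7.39 and 7.32 with replicate 1 inside the untreated range. Echs1, the short-chain enoyl-CoA hydratase, read 6.66, 5.95 and 6.09 untreated and 6.65, 7.29, 6.78, 7.08 and 6.57 at 21 days, with a difference of 0.64 ± 0.23 (adjusted p = 0.369). Its ranges overlapped through untreated replicate 1. On the negative side were Acads (-0.39 ± 0.16, adjusted p = 0.419), Fh1 (-0.21 ± 0.11) and Cpt2, the inner-membrane carnitine palmitoyltransferase (-0.23). Acads read 7.41, 7.03 and 7.04 untreated and 6.52, 6.67, 7.10, 6.48 and 7.08 at 21 days. Fh1 at 21 days read 8.14, 7.84, 8.14, 7.87 and 7.82. Cpt2 read 6.82, 7.03 and 6.29 untreated and 6.09, 6.64, 6.56, 6.48 and 6.62 at 21 days. All 3 overlapped between the groups.

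Between 7 and 21 days of treatment 0 of 39 genes were called in tumour cells (1.22% of all genes), again with both forms of limma, and 4 were higher and 2 lower at an unadjusted p under 0.05, against 6.42% and 5.44%. Decr1, the dienoyl-CoA reductase needed for unsaturated fatty acids, read 6.88, 7.15, 6.89 and 6.89 at 7 days and 6.59, 6.35, 6.19, 5.81 and 6.46 at 21 days. The 2 groups did not overlap and the untreated arrays, at 6.05, 6.90 and 6.50, spanned both, with a difference of -0.67 ± 0.18 (adjusted p = 0.104). Suclg1, at 8.29, 8.64, 8.33 and 8.38 and then 7.98, 8.25, 8.11, 8.13 and 8.27 (-0.26 ± 0.09, adjusted p = 0.236), and Cpt2 (-0.30 ± 0.14, 0.450) followed, and on the positive side Echs1 (0.61 ± 0.21, 0.225), Hadh (0.32 ± 0.13, 0.328) and Idh2 (0.23 ± 0.09, 0.333).

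**Figure D4:**
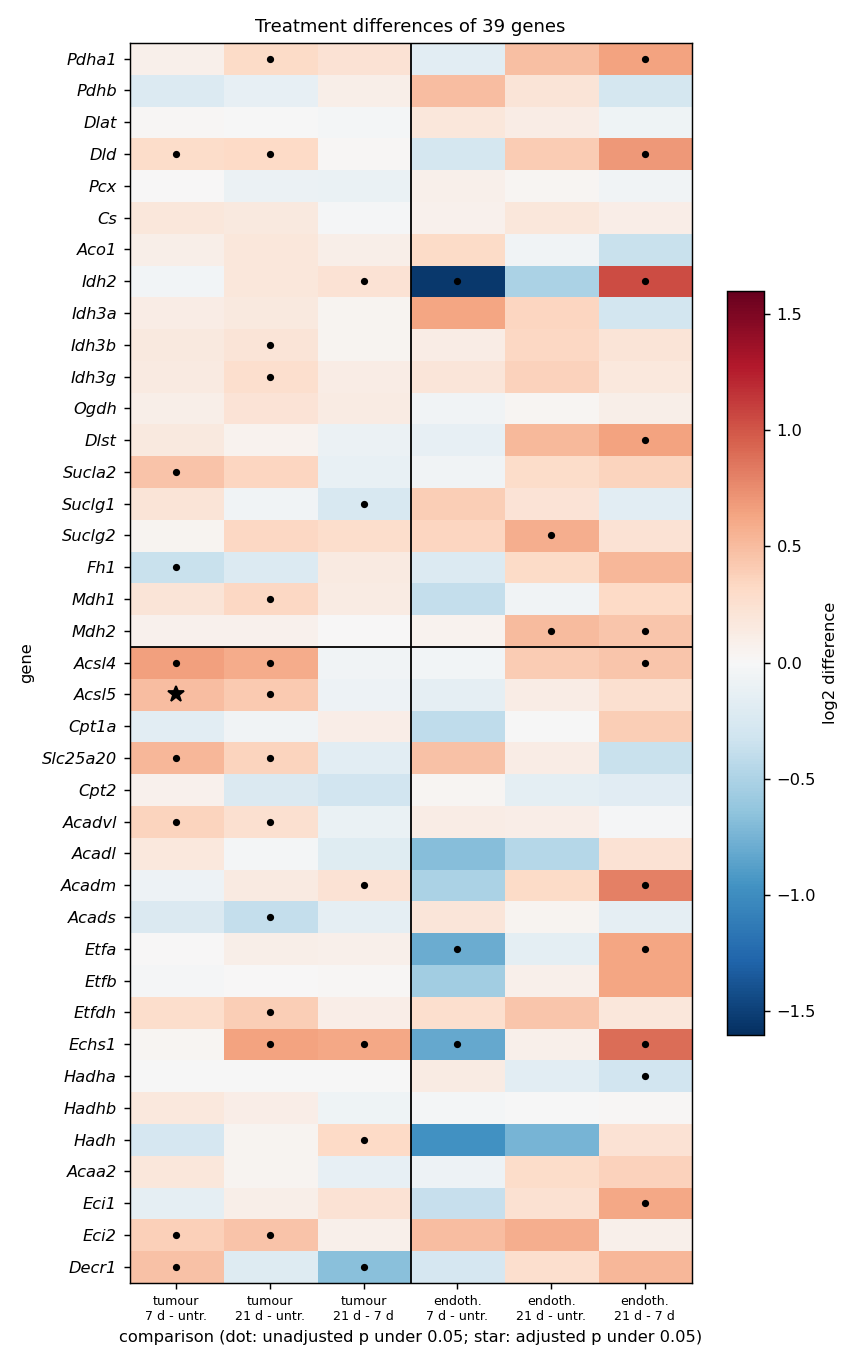
Log2 differences of the 39 genes in the 3 treatment comparisons of each cell type (colour; rows are genes, with pyruvate and TCA genes above the line; dots, unadjusted p under 0.05; star, adjusted p under 0.05). The only star is Acsl5 in 7-day tumour cells, and the deepest colours are Idh2 in endothelial cells at 7 days (-1.54) and from 7 to 21 days (1.04).

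In endothelial cells no gene of the 39, and none of all 19938 (0%), was called in any of the 3 treatment comparisons by limma, with or without a trend in the prior variance for the 39. At an unadjusted p under 0.05, 0 members were higher and 3 lower at 7 days, against 4.94% and 3.24% of all genes. Against untreated cells 2 were higher and 0 lower at 21 days (2.58% and 1.59% of all genes), and from 7 to 21 days 10 were higher and 1 lower (4.09% and 5.31%). The member medians were -0.04, 0.18 and 0.23 in these comparisons and those of all genes 0.06, 0.01 and -0.04. The 9969 genes brightest on endothelial arrays had medians of -0.03, 0.04 and 0.08. After renewed quantile normalization the member medians were 0.01, 0.12 and 0.10. The 7-day arrays stand in both the first and the third comparison, so these are not independent of each other.

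Idh2 had the smallest p in endothelial cells at 7 days. Its 7-day arrays, listed above at 6.71 to 7.31, lay below the untreated ones at 8.07 to 8.98 and the 21-day ones at 7.60 to 8.60. The difference from untreated was -1.54 ± 0.31 (2.92-fold, adjusted p = 0.313), that at 21 days -0.50 ± 0.28 (adjusted p = 1.0) and that between 7 and 21 days 1.04 ± 0.28 (0.389). In 1 fit over all 23 arrays, which shares its estimate of spread between both cell types, the 7-day difference had an adjusted p of 0.00446 and that between 7 and 21 days 0.0204. The macrophage marker mean was 4.61, 5.0 and 4.97 on the 7-day endothelial arrays and 7.56, 5.48 and 5.48 on the untreated ones, and the 2 untreated arrays at 5.48 had Idh2 at 8.07 and 8.76. Of the 15 markers 14 had a negative 7-day difference, with a median of -1.27 and 0 called. Csf1r, a defining marker, read 8.14, 4.84 and 5.37 untreated and 4.82, 5.05 and 5.45 at 7 days, and Adgre1 stayed between 3.51 and 4.59 on all endothelial arrays. Other markers differed more, without overlap and also on the 2 untreated arrays with a marker mean of 5.48. Lyz2 read 11.42, 9.28 and 9.06 untreated and 4.81, 6.81 and 6.87 at 7 days (-3.75 ± 1.17, adjusted p = 0.549). C1qb read 8.31, 6.17 and 6.76 and then 3.66, 5.43 and 3.61 (-2.85 ± 1.06, adjusted p = 0.595). Without the 3 endothelial arrays high in these markers the Idh2 difference was -1.36 ± 0.29 (adjusted p = 0.643), and with the marker mean as a covariate -1.09 ± 0.25 (0.620). Of the isolation stress genes all 11 had a positive 7-day difference, with a median of 0.86 and 0 called, and with their mean as a covariate the Idh2 difference was -2.34 ± 0.51 (0.480).

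**Figure D5:**
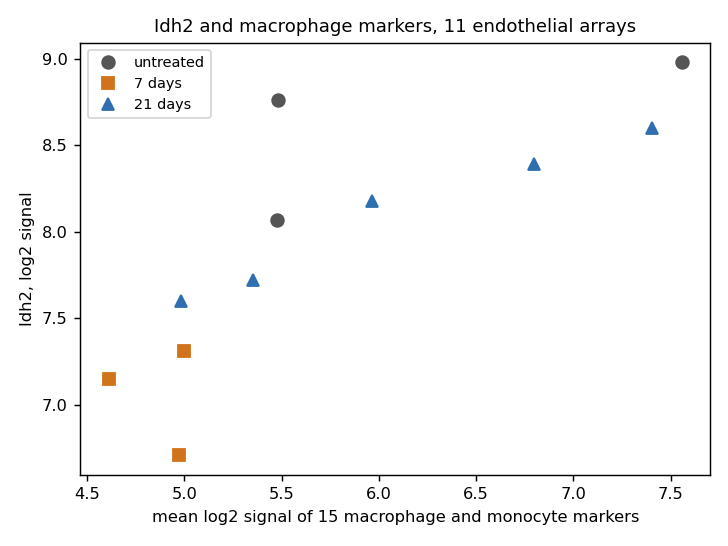
Idh2 log2 signal against the mean log2 signal of 15 macrophage and monocyte markers on the 11 endothelial arrays (1 point per array, marked by treatment). The 7-day arrays are low on both axes, the 21-day arrays span marker means from 4.98 to 7.405 with Idh2 from 7.60 to 8.60, and 2 untreated arrays with a marker mean of 5.48 have Idh2 at 8.07 and 8.76.

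Etfa and Echs1 followed Idh2 in 7-day endothelial cells. Etfa read 9.56, 8.89 and 8.99 untreated, 7.96, 8.76 and 8.35 at 7 days and 8.63, 9.09, 9.24, 9.11 and 8.86 at 21 days, a 7-day difference of -0.79 ± 0.25 (adjusted p = 0.549). Echs1 read 6.18, 6.46 and 6.47, then 5.11, 5.67 and 5.89, then 6.41, 6.64, 6.28, 7.04 and 5.90, with a 7-day difference of -0.81 ± 0.28 (adjusted p = 0.568). In both genes the 7-day arrays lay below the untreated ones, and in Echs1 below the 21-day ones too. On the positive side at 7 days were Pdhb (0.49 ± 0.28, adjusted p = 0.702), Slc25a20 (0.47) and Eci2 (0.50), none called. At 21 days the smallest p belonged to Mdh2 (0.50 ± 0.19), Suclg2 (0.58 ± 0.25) and Dlst, the E2 enzyme of the 2-oxoglutarate dehydrogenase complex (0.52 ± 0.25). Mdh2 read 11.16, 11.01, 10.90, 10.95 and 10.48 at 21 days, with 4 of 5 arrays above the untreated ones. Suclg2 read 7.18, 6.69 and 7.87 untreated and 7.88, 7.72, 8.16, 7.78 and 7.57 at 21 days, and Dlst 7.29, 8.04 and 7.94 and then 8.40, 8.0, 7.98, 8.19 and 8.82, both overlapping. At 21 days there followed on the negative side Idh2, Hadh (-0.74) and Hadha (-0.17), and all 6 had an adjusted p of 1.0. Hadh read 7.72, 5.94, 7.95, 7.02 and 6.96 at 21 days, widely spread, and Hadha read 8.98, 9.19, 9.15, 8.97 and 9.18. From 7 to 21 days Echs1 (0.90 ± 0.25, adjusted p = 0.399) and Etfa (0.63 ± 0.22, 0.458) stood beside Idh2, and on the negative side were Hadha (-0.30 ± 0.12, 0.484), Slc25a20 (-0.36) and Aco1, the cytosolic aconitase and iron regulatory protein (-0.36). At 7 days the endothelial arrays read 6.29, 5.27 and 5.6 for Slc25a20, 7.55, 6.95 and 7.49 for Pdhb and 7.54, 7.75 and 7.58 for Eci2. Aco1 read 6.70, 7.96 and 7.32 at 7 days and 6.70, 7.32, 7.16, 6.49 and 7.17 at 21 days, overlapping ranges.

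Whether a treatment effect differed between endothelial and tumour cells was tested as an interaction over all 23 arrays. At 7 days 0 of 39 genes were called (0.0953% of all genes), and 1 was positive and 5 negative at an unadjusted p under 0.05, against 6.83% and 4.22%. Idh2 had the smallest p: endothelial minus tumour effect -1.49 ± 0.32, 95% interval -2.17 to -0.82, adjusted p = 0.0929. Leaving out untreated endothelial replicate 2 gave -1.76 (adjusted p = 0.0328) and leaving out 7-day endothelial replicate 2 gave -1.62 (0.0343). The other 5 were Acsl5 (-0.65 ± 0.20, adjusted p = 0.262), Etfa (-0.80 ± 0.26, 0.280), Pdhb (0.72 ± 0.30, 0.395), Acsl4 (-0.69 ± 0.31, 0.425) and Echs1 (-0.84 ± 0.38, 0.428). At 21 days 0 of 39 and 0% of all genes were called, with 0 positive and 1 negative at an unadjusted p under 0.05 (2.78% and 2.55% of all genes), the latter Idh2 (-0.68 ± 0.30, adjusted p = 0.893).

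Other genes of these pathways were counted from 7 lists, of which 95 genes were measured. In the treatment comparisons 1 of them was called, between 7 and 21 days in tumour cells, where 1.22% of all genes were called. Oxct1, which activates ketone bodies for use in the TCA cycle, read 7.10, 7.32, 7.47 and 7.09 in 7-day tumour cells and 7.70, 8.01, 7.85, 7.95 and 7.80 at 21 days. The groups did not overlap, and it rose by 0.62 ± 0.12 (adjusted p = 0.0262), a call lost in 1 fit over all 23 arrays (0.461), with the macrophage or the isolation stress mean as a covariate (0.125 and 0.264), and without any 1 of 7-day replicates 1, 2 and 4 or 21-day replicates 2, 3 and 4 (0.0586 to 0.0879). Its difference from untreated was -0.40 ± 0.13 at 7 days and 0.21 ± 0.13 at 21 days. Pdk1, the kinase that shuts off pyruvate dehydrogenase, differed by 0.93 ± 0.21 in 21-day tumour cells (adjusted p = 0.139), and Pdk4, another such kinase, by -0.01 ± 0.07.

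Some genes of fatty acid uptake and lipolysis were higher in endothelial cells. The fatty acid transporter gene Cd36 was higher in endothelial cells by 5.03 ± 0.48, 6.51 ± 0.45 and 6.17 ± 0.38 in the 3 states. On tumour cell arrays it read 2.93 to 3.26, below the medians of all arrays (4.4 to 4.55). With no detection call at hand, these differences are best read as lower bounds, and Fabp4, at 3.81 to 4.61 on tumour cell arrays, was also near or below those medians. Fabp4, a fatty acid binding protein of endothelium and fat, was higher by 5.58 ± 0.27, 5.88 ± 0.26 and 5.82 ± 0.21, and Mgll, monoglyceride lipase, by 4.14 ± 0.52, 3.46 ± 0.49 and 4.10 ± 0.41. The counts that follow stand beside 8.18%, 23% and 15.7% of all genes higher and 10.2%, 17.0% and 16.3% lower in the 3 states, and several lie near these shares. Of the 16 uptake and lipolysis genes 5, 7 and 8 were called higher and 2, 2 and 2 lower, the lower ones including the lipid droplet gene Plin2 (-1.01 ± 0.21 in untreated cells). Among 17 regulators 3, 6 and 4 were higher and 2, 1 and 4 lower. Pparg, a nuclear receptor of lipid uptake, was higher by 2.18 ± 0.27, 2.33 ± 0.26 and 2.34 ± 0.21, while Esrra was not called. On tumour cell arrays Mgll read 4.03 to 5.58 and Pparg 4.03 to 4.94, in part below the array medians. Ppara (3.35 to 3.89) and Ppargc1a (3.28 to 4.09) lay below the array medians on all 23 arrays, so their small differences at 7 days (0.25 ± 0.08, adjusted p = 0.0239) and 21 days (-0.31 ± 0.10, adjusted p = 0.0193) come from signals that may not be above background.

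Enzymes beside the 39 were called in both directions between the cell types, and the same shares of all genes stand beside their counts. Of 14 other TCA and pyruvate genes 1, 0 and 1 were higher in endothelial cells and 3, 3 and 2 lower. Idh1, the cytosolic isocitrate dehydrogenase, was lower, with differences of -1.10 ± 0.32, -0.82 ± 0.30 and -0.84 ± 0.25 (adjusted p = 0.0192, 0.0356 and 0.0137), and Pdk1 was higher in untreated cells (1.26 ± 0.36, adjusted p = 0.0169). Of 16 anaplerosis and shuttle genes 0, 1 and 1 were higher and 2, 5 and 4 lower, with the malic enzyme gene Me1 lower, with differences of -2.19 ± 0.35, -2.63 ± 0.32 and -2.24 ± 0.27. Among 21 other fatty acid oxidation enzymes 2, 3 and 3 were higher and 4, 8 and 7 lower. Acot13, an acyl-CoA thioesterase, was lower, with differences of -1.83 ± 0.38, -2.49 ± 0.35 and -1.47 ± 0.29, and Acat1, a mitochondrial thiolase, higher by 0.86 ± 0.14, 0.69 ± 0.13 and 0.91 ± 0.11. Of 9 peroxisomal genes 0, 0 and 0 were higher and 1, 3 and 2 lower, among them the transporter gene Abcd3 (-0.91 ± 0.17 in untreated cells). Of the 2 ketone body genes Oxct1 was lower at 7 days (-1.46 ± 0.25) and 21 days (-1.61 ± 0.21), and Bdh1 higher at 21 days (0.27 ± 0.09).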

How the data were processed

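Total RNA of sorted cells was measured on 23 Affymetrix arrays. The deposited values are log2 signals that the authors made with RMA in the oligo package, per the submitters' processing notes, with no version, which is not given in the sources used here. That method subtracts background, gives all arrays like distributions and combines the probes of a transcript cluster, so values are relative to the rest of each array, and the number of arrays limits the precision. Of 35556 clusters, 21789 carried 1 gene symbol, 1621 several and 12146 none. Symbols were updated through gene IDs for 21698, and each of 19938 genes was read from its brightest single-gene cluster, 999 having more than 1. All 39 members were measured, 2 of them (Suclg2 and Hadhb) by more than 1 cluster.

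Groups came from the labels. Treatment comparisons were fitted within each cell type (12 and 11 arrays), and comparisons between cell types over all 23 arrays, with limma 3.58.1 in R 4.3.3 and Benjamini-Hochberg adjustment over all genes. A call is a two-sided adjusted p under 0.05, and errors after ± are standard errors unless said otherwise. The members and lists were chosen with earlier results of these data known. Values by array are given for members called in a treatment comparison, for the 3 members with the smallest p in each direction in each treatment comparison and for the 5 in each direction between untreated cell types. From the other pathway lists a fixed panel and a few genes of smallest p are named. The labels do not say whether arrays with the same replicate number share a tumour, and the numbers were not used to pair samples: deviations of same-numbered arrays correlated at -0.149 to 0.112 within a cell type and -0.110 to 0.064 between cell types. Alternatives were 1 fit over all arrays, only the groups compared, keeping only genes past percentile 30 or 50 by mean signal, weighting the arrays, averaging a gene's clusters, limma with a trend in the prior variance, renewed quantile normalization, median centring, a replicate block, marker covariates and leaving out arrays. The fits were tested on simulated data.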

Additional observations from a re-analysis of the deposited data

Results flagged for a closer look

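Each member's arrays were screened within the groups of 4 or 5 for 1 array far from the others by Dixon's test, and 6 of 117 such groups (5.13%) had one, where chance gives about 1 in 20. Ogdh was 8.91 in 21-day endothelial replicate 5, against 8.05 to 8.27 on the other arrays of its group. Acadm was 6.41 in 21-day endothelial replicate 1, against 7.48 to 7.78. In tumour cells, 21-day replicate 1 was far from its group for Hadh (8.43, against 8.89 to 9.04) and for Eci2 (6.89, against 7.29 to 7.39). At 7 days Cpt2 was 6.85 in tumour cell replicate 3, against 6.75 to 6.76, and Decr1 was 7.15 in replicate 2, against 6.88 to 6.89.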

How the results depend on the processing

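Among 178 named results and 5374 alternatives of them, 5104 kept direction and side of the threshold, 207 lost the call, 55 gained one and 8 changed sign; the cause was not tested. The count of 1 member called in 7-day tumour cells became 0 with 1 fit over all 23 arrays, with a trend in the prior variance, with a replicate block and with the macrophage or the isolation stress mean as a covariate. With 1 fit over all arrays the endothelial counts at 7 days and from 7 to 21 days became 1 each (Idh2). The member median between cell types at 7 days was -0.35 after renewed quantile normalization, and that of the cell type difference in the 21-day effect -0.078 without the 3 endothelial arrays high in macrophage markers. The replicate block left 10, 15 and 10 calls between cell types in the 3 states and 0 in every other comparison. Leaving out 1 array gave 6 to 15, 15 to 23 and 11 to 16 calls in those states, with medians of -0.47 to -0.30, -0.62 to -0.48 and -0.41 to -0.30. It gave 0 to 1 calls in 7-day tumour cells and for the 7-day cell type difference, and 0 in the other treatment comparisons. Its medians were 0.08 to 0.14 (7-day), 0.08 to 0.17 (21-day) and -0.0024 to 0.05 (21 against 7 days) in tumour cells, -0.11 to 0.03, 0.12 to 0.24 and 0.16 to 0.36 in endothelial cells, and -0.23 to -0.10 and -0.04 to 0.11 for the cell type differences. Signs changed with the isolation stress covariate for Hadh in 7-day tumour cells (0.16) and, in endothelial cells, for Slc25a20 at 7 days (-0.031), Hadha at 21 days (0.054) and Mdh2 at 21 days (-0.21). Between cell types at 7 days they changed for Ogdh without 7-day endothelial replicate 2 (-0.065; leaving out any 1 array gave up to 0.35) and for Pcx after renewed quantile normalization (-0.12), median centring (-0.0195) and without 7-day endothelial replicate 1 (-0.026). The other clusters of Suclg2 and Hadhb, leaving out the 3 arrays and the isolation stress covariate were chosen after seeing the data. Groups of 3 to 5 arrays and the wider spread between endothelial arrays limit what could be called there.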
